A study of Mus musculus with 6 samples.

Results

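The genes described here encode the core proteins of the spliceosome and the SR splicing factors. They are all genes whose symbol begins with Snrp, U2af, or Sf3a, Sf3b, Srsf or Prpf followed by a digit. Of 52550 genes listed, 52 matched, 2 of them were pseudogenes marked -ps and left out, and the other 50 all passed the filter on low values (a normalised read count of 1 or more in 3 libraries or more of the 6), as 20136 genes did in all. The 50 members were 13 Snrp, 9 Sf3, 4 U2af, 11 Srsf and 13 Prpf genes. They included Snrpert, annotated as a processed pseudogene, and 2 genes that both carry the symbol U2af1l4. A normalised read count is the number of reads on a gene divided by 1 size factor per library and is not corrected for gene length.

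Polyadenylated RNA was sequenced from mouse bone marrow cells that the labels name primary hematopoietic stem cells, in 3 wild-type (WT) and 3 knockout (KO) libraries. Both groups carried Ppp2ca f/f, floxed alleles of the catalytic subunit gene of protein phosphatase 2A. The KO group also carried VAV1cre, a Cre recombinase under a promoter active throughout the blood lineage, so recombination is not limited to stem cells. No Cre is named for the WT group, and age, sorting markers and the number of mice per library are not given in the sources used here, so the p-values reflect only how these 6 samples spread, which may be technical. The libraries held 37951985 to 58692037 reads, with 20051 to 21362 genes above 0. Ppp2ca had 32909, 33451 and 33169 normalised reads in WT and 23728, 22419 and 24046 in KO, or 70.5% of the WT mean (log2 fold change −0.50, limma adjusted p = 0.00268). The values cover the whole gene and so do not measure the deleted exons.

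In bulk RNA, fewer cells of a type and less RNA per cell cannot be told apart, and markers of several cell types moved with genotype. All 10 stem cell markers tested were lower on average and 9 fell, with a summed level of 22605 to 29482 in WT and 4712 to 7671 in KO. Of 7 granulocyte-monocyte progenitor markers, 6 rose (summed 1259504 to 1489000 against 1868347 to 2083204). Of 8 erythroid markers, 7 fell and 1 rose (46525 to 56590 against 18220 to 33730), and all 6 megakaryocyte markers fell (20410 to 24587 against 4776 to 6646). Of 9 proliferation markers, 4 rose (154671 to 164370 against 170251 to 184472). Of 8 mature neutrophil markers, 3 rose and 1 fell (83098 to 141248 against 120057 to 266010). Of 6 macrophage markers, 3 fell (12843 to 19142 against 7150 to 10630). Of 5 T and NK markers tested, 3 fell and 1 rose (33657 to 35194 against 41682 to 43868, a sum that was higher in KO). Of 4 B lineage markers tested, 1 fell (13344 to 32144 against 2370 to 3712), and Pax5 and Ebf1 were at 0 in all libraries. The part of cell composition in the results below was not tested.

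The spliceosome removes introns from precursor RNA. U1 small nuclear ribonucleoprotein (snRNP) binds the start of an intron, U2AF binds the pyrimidine tract and the AG at its end, and U2 snRNP with its SF3A and SF3B complexes binds the branch point. The U4/U6.U5 tri-snRNP, which holds many PRPF proteins, then joins, and the complex is rearranged into its catalytic form. A ring of 7 Sm proteins surrounds the RNA of the U1, U2, U4 and U5 snRNPs. SR proteins, named for stretches of alternating serine and arginine, bind exons and recruit U1 snRNP and U2AF, and their activity depends on phosphorylation by SRPK and CLK kinases and on its removal by phosphatases. Mutations in Sf3b1, Srsf2 and U2af1 are common in human myelodysplastic disease, which makes these genes familiar in blood cell biology.

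Across the 50 members, 9 rose in KO, 2 fell and 39 did not pass the test (limma on log2(value + 1), Benjamini-Hochberg adjusted p below 0.05 over all 20136 genes). The background was 10.3% of all genes tested called higher, 13% called lower and 23.3% called in either direction, against 18%, 4% and 22% of the members. The share of members called was thus near the background. The 2 lower calls include Snrpn, which had 0 reads in KO and passed the filter only through WT, so it supports no count. Members are abundant transcripts, and among the 7510 genes with a mean of at least 1000 normalised reads, a class chosen after seeing the data, 21.3% were called higher, 12.1% lower and 33.4% in either direction, against 9, 1 and 10 of 43 members of that class. The members' share of higher calls was thus near that of genes as abundant as themselves, and the difference in lower calls was not tested. The median log2 fold change was 0.18 over the members and −0.02 over all genes, or 0.24 and 0.09 in the abundant class. In 25 of 50 members the KO and WT values did not overlap, 21 higher and 4 lower, beside 40.9% of all genes (19.1% higher, 21.7% lower). Snrpn was 1 of the 4 lower. In the abundant class this held for 20 members higher and 2 lower of 43, beside 33.6% and 19.4% of such genes, or 53% in all.

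The split between higher and lower members depended on scaling. The deposited values sum to 49336024 to 50641650 in the KO libraries and 44391581 to 46310456 in the WT libraries. With all libraries scaled to 1 total, 4 members rose and 4 fell, so 50% of the called members were higher in place of 81.8%. The median was then 0.04 over members and −0.16 over all genes, 0.20 apart, as against 0.21 apart in the deposited scaling. With quantile normalization 6 rose and 5 fell, and the medians were 0.10 and 0.08. Members together took 0.989%, 1.01% and 1.03% of all reads in WT and 0.957%, 1.02% and 0.997% in KO, which overlapped. The calls of Prpf8, Prpf31, Prpf38a and Snrpb2 held in all 18 alternative fits. Of the 2 members that fell, Snrpn had 0 reads in KO and passed the filter on low values only through WT, the group where it was high, so its fall supports no count, and the other was Srsf7. Without KO replicate 3, 4 members rose and 1 fell, and without KO replicate 1, 5 rose and 2 fell. Without WT replicate 1 or WT replicate 2, 6 rose and 1 fell. Snrpg, Sf3b4, Sf3a2 and U2af1 lost their call without WT replicate 1, WT replicate 2, KO replicate 1, KO replicate 2 or KO replicate 3, each taken alone, and Sf3b4 also without WT replicate 3.

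**Figure D1:**
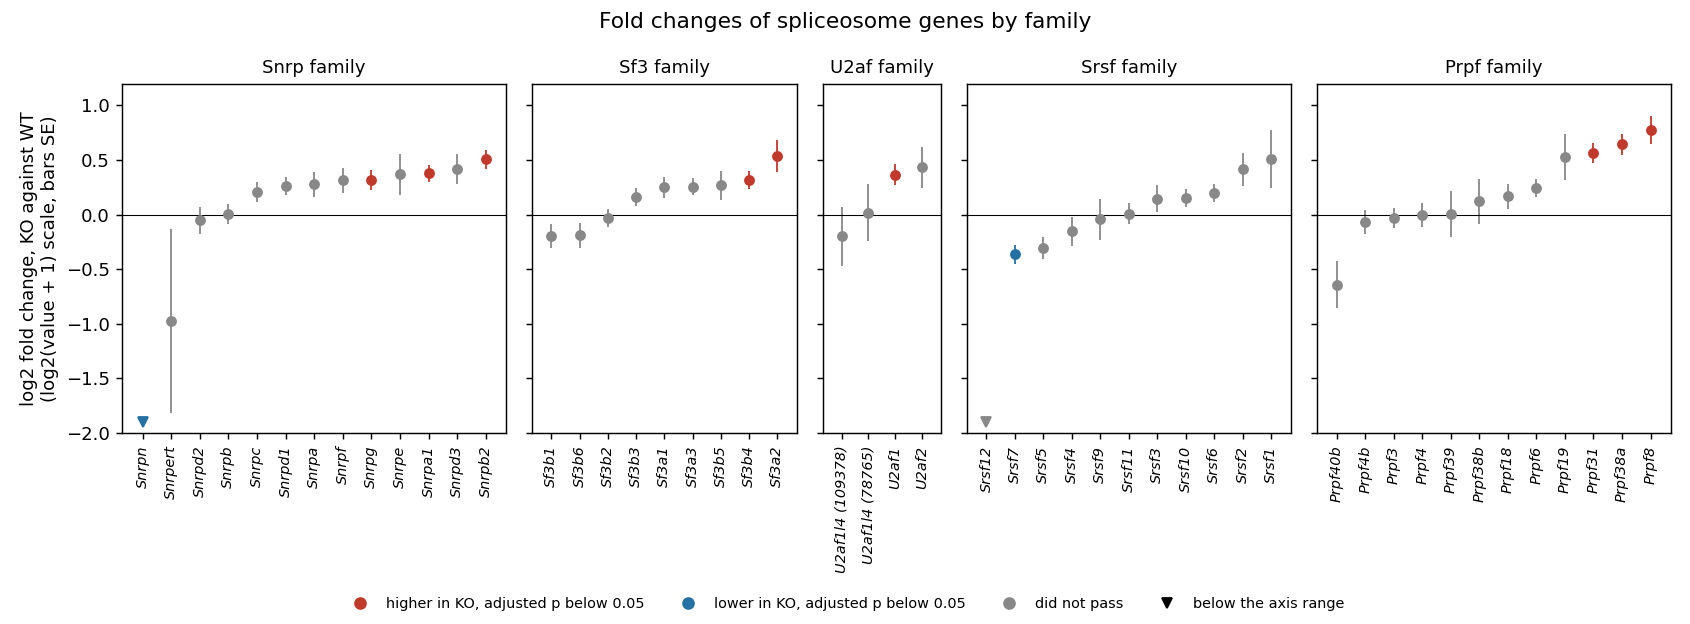
Log2 fold change, KO against WT, of the members by family, with 1 member left out, on the log2(value + 1) scale, with bars for the standard error over 3 libraries a group. Red points rose, blue fell and grey did not pass; triangles at the lower edge mark Snrpn (−5.12) and Srsf12 (−2.10), which lie below the axis range, and Prpf8 is the highest point at 0.78.

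Of the Sm ring genes, Snrpg rose, 6 did not pass, and Snrpn, which met the filter on low values through its WT libraries alone, was called lower. Snrpg (ENSMUSG00000057278.8, GRCm38 chromosome 6, 86371304 to 86379328), the gene of Sm G, had 6550, 6312 and 7532 normalised reads in WT and 8720, 8128 and 8504 in KO. Every KO value lay above every WT value, and the log2 fold change was 0.32 ± 0.09 (SE), with a limma adjusted p of 0.0425. That call was lost in 11 of 18 alternatives, where the adjusted p ranged from 0.0102 to 0.231.

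Snrpb, the gene of Sm B and the Sm gene with the highest level per kilobase of exon, had 19651, 22349 and 24146 normalised reads in WT and 22008, 21660 and 22708 in KO. The groups overlapped around means of 22049 ± 2263 and 22125 ± 534 (SD, n = 3 each), a log2 fold change of 0.01. Its sign turned with quantile normalization (−0.23) and total read scaling (−0.13). Snrpd1, Snrpd3 and Snrpf, of the Sm D1, D3 and F proteins, had log2 fold changes of 0.26, 0.42 and 0.31 and adjusted p of 0.0594, 0.0628 and 0.0823 in limma. In these 3 genes all KO values lay above all WT values, as in 19.1% of all genes and 33.6% of the abundant class. Of the exon bases of Snrpf, 65.9% lie opposite the scarcer gene Ccdc38, and whether the libraries are stranded is not stated in the sources used here. Snrpe (0.37) overlapped between groups, as did Snrpd2 (−0.05).

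Snrpn (ENSMUSG00000102252.5, chromosome 7, 59982495 to 60140219) encodes Sm N, a close relative of Sm B that is prominent in brain, and is imprinted, with expression from the paternal allele. It was rare in WT, with 36, 17 and 59 reads before scaling (42.1, 16.2 and 55.8 normalised), and had 0 reads in all 3 KO libraries. Against a floor of 3 reads in each KO library, Snrpn was at least 13-fold lower in KO. The limma adjusted p was 0.00239, from a test that only a high WT level let the gene enter. With no filter it was 0.00379, and it ranged from 7.92e-06 to 0.0156 over the alternatives. Of its annotated exon bases, 27.3% and 10% are shared on the same strand with Gm38393 and Snurf, both listed at 0, so its count is uncertain. Snrpert, the pseudogene of the Snrpe sequence, had 27, 5 and 8 reads in WT but 6, 2 and 10 in KO, a difference short of the threshold (adjusted p = 0.465 in limma). Its reads cannot be told safely from those of Snrpe.

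Both genes of U2 snRNP proteins in the Snrp family rose. The 2 genes of U1 proteins did not pass, and a difference between the U1 and U2 genes was not tested. Snrpb2, which encodes the U2 protein B'' (ENSMUSG00000008333.12, chromosome 2, 143063039 to 143072853), had 4880, 5223 and 5725 normalised reads in WT and 7566, 7132 and 7733 in KO. The groups did not overlap, with a mean of 5276 ± 425 in WT and 7477 ± 310 in KO (SD, n = 3 each), a log2 fold change of 0.51 ± 0.09 (SE) and a limma adjusted p of 0.00706. Snrpa1, which encodes A', its partner on U2 RNA (ENSMUSG00000030512.13, chromosome 7, 66059003 to 66074587), had 5444, 5473 and 5777 in WT and 7260, 6976 and 7496 in KO. The groups did not overlap, and the log2 fold change was 0.38 ± 0.08 (SE) with a limma adjusted p of 0.0118. The Snrpa1 call was lost without KO replicate 3 (adjusted p = 0.0654), without the intensity trend (0.0714) and with total read scaling (0.0582), over a range of 0.00125 to 0.0714 in all alternatives. The genes of the U1 A and C proteins, Snrpa and Snrpc, had log2 fold changes of 0.28 and 0.21 and limma adjusted p of 0.126 and 0.147. Snrpa was called higher without WT replicate 3 (adjusted p = 0.0445) and with library quality weights (0.0287), over a range of 0.0287 to 0.447 in the alternatives. Snrpc was called with quality weights (0.035), over a range of 0.035 to 0.686. Neither was called by edgeR or DESeq2, and 1 of the 2 had an unadjusted p below 0.05 in limma.

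Among the genes of SF3A and SF3B, Sf3a2 and Sf3b4 rose, 0 fell and 7 did not pass in limma. The share called higher was 22.2%, beside 10.3% of all genes and 21.3% of the abundant class, and so near the latter. At an unadjusted p below 0.05, 4 were higher and 0 lower, and edgeR and DESeq2 each called 3 higher and 0 lower. The share of all genes at that unadjusted threshold was not computed, but it is at least the 23.3% called after adjustment. Such counts, here and for the other families and lists, therefore have no background beside them. Sf3a2 (ENSMUSG00000020211.15, chromosome 10, 80798198 to 80804924), a subunit of the SF3A trimer, had 842, 860 and 1130 normalised reads in WT and 1408, 1361 and 1299 in KO. Its lowest KO value was above its highest WT value (log2 fold change 0.53 ± 0.14 SE, limma adjusted p = 0.0335, and 0.0108 to 0.102 in the alternatives). Of its exon bases, 16.1% lie opposite Plekhj1, which did not pass. Sf3b4, the SF3B subunit that contacts RNA near the branch point (ENSMUSG00000068856.3, chromosome 3, 96172332 to 96177564), had 7889, 9003 and 8983 in WT and 10539, 10521 and 11057 in KO. The groups were again apart, by a log2 fold change of 0.31 ± 0.08 (SE) with a limma adjusted p of 0.0317. The adjusted p of Sf3b4 ranged from 0.00716 to 0.184 in the alternatives, and the call was lost in 10 of 18.

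Sf3b1, the large subunit that clasps the branch point, had 40512, 40621 and 31881 normalised reads in WT and 31393, 34573 and 32158 in KO. WT replicate 3 lay within the KO range, so the groups overlapped, and the difference did not pass (log2 fold change −0.20, limma adjusted p = 0.249). Without WT replicate 3, Sf3b1 was called lower, as it was with quantile normalization, and the adjusted p ranged from 0.0135 to 0.499 over the alternatives. The remaining genes Sf3a1 (0.25), Sf3a3 (0.26), Sf3b3 (0.16) and Sf3b5 (0.27) had positive log2 fold changes, and Sf3b2 (−0.03) and Sf3b6 (−0.19) negative ones. Sf3a3 came nearest to the threshold (adjusted p = 0.0521 in limma) and passed in 6 of 18 alternatives (0.0201 to 0.389). All 3 SF3A genes had KO values above every WT value, as did 19.1% of all genes and 33.6% of the abundant class. Sf3b3 turned negative with quantile normalization (−0.14).

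U2af1, the small U2AF subunit that reads the AG at the intron end, rose. Its normalised reads (ENSMUSG00000061613.12, chromosome 17, 31647082 to 31658754) were 6480, 5720 and 7051 in WT and 7913, 8464 and 8324 in KO. The groups did not overlap, with a log2 fold change of 0.36 ± 0.10 (SE) and a limma adjusted p of 0.0313 (0.00674 to 0.156 in the alternatives). U2af2, the large subunit that binds the pyrimidine tract, had 1335, 1502 and 1683 in WT and 1701, 2678 and 1824 in KO. Every KO value of U2af2 lay above every WT value, the lowest by little, and KO replicate 2 stood above the other KO values. The difference did not pass (log2 fold change 0.43, limma adjusted p = 0.138). The 2 genes with the symbol U2af1l4, of a relative of U2af1, share 1086 exon bases on the same strand, so reads between them are uncertain. Their log2 fold changes were 0.02 for ENSMUSG00000078765.11 and −0.20 for ENSMUSG00000109378.1, and neither passed.

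Among the 11 SR protein genes 0 rose, 1 fell and 10 did not pass in limma, and their log2 fold changes had 0.01 as the median. Shares called were 0% higher and 9.09% lower, beside 10.3% and 13% of all genes, or 21.3% and 12.1% of the abundant class. Their lower share was thus near both backgrounds, and the difference in higher calls was not tested. At an unadjusted p below 0.05, 2 SR protein genes were higher and 2 lower, while edgeR called 0 higher and DESeq2 called 1, Srsf2. Srsf7 (ENSMUSG00000024097.10, chromosome 17, 80200089 to 80207305), an SR protein that also joins splicing to RNA export, had 41466, 42747 and 41823 normalised reads in WT and 29216, 35014 and 34123 in KO. The WT values lay close together and all above the KO values. From a WT mean of 42012 ± 661 to a KO mean of 32784 ± 3122 (SD, n = 3 each), KO kept 78.0% of the WT level, a log2 fold change of −0.36 ± 0.09 (SE) with a limma adjusted p of 0.0225. The call was lost without the intensity trend and without WT replicate 1, WT replicate 2, WT replicate 3 or KO replicate 3, and the adjusted p ranged from 0.00236 to 0.112 over the alternatives.

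Srsf5, another SR protein, had 26256, 22853 and 22183 normalised reads in WT and 17283, 20222 and 20281 in KO. The groups did not overlap, but the difference did not pass (log2 fold change −0.30, limma adjusted p = 0.0665). It passed with DESeq2, quantile normalization and total read scaling (0.0106 to 0.196 in the alternatives). Srsf2, also called SC35, had 22560, 33641 and 27904 in WT and 33547, 41204 and 36268 in KO, which overlapped between WT replicate 2 and KO replicate 1 (log2 fold change 0.41, limma adjusted p = 0.0855). Srsf2 passed without WT replicate 2 (0.0392), with DESeq2 and with the replicate number as a block (0.0257 to 0.636 over the alternatives). Of the exon bases of Srsf2, 15.6% lie opposite Mettl23 and 9.74% opposite Mfsd11. Both neighbours, named after their values were seen, rose (log2 fold changes 0.42 and 0.39), and with strandedness unknown, reads in the shared stretch cannot be told apart.

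Srsf1, the founding member of the family, had 6670, 3649 and 3366 normalised reads in WT and 5482, 7727 and 5570 in KO. WT replicate 1 lay inside the KO range and the other WT libraries far below it. With all libraries the log2 fold change was 0.51 (limma adjusted p = 0.211), and without WT replicate 1 it was 0.82 and passed (adjusted p = 0.0308, beside 0.0308 to 0.478 over all alternatives). Srsf3, the shortest SR protein, had 25758, 30515 and 28703 in WT and 26556, 35807 and 32236 in KO, an overlap (0.15, adjusted p = 0.447 in limma). Srsf6 (0.20), Srsf10 (0.15) and Srsf11 (0.01) were likewise above 0 and Srsf4 (−0.15) and Srsf9 (−0.04) below, and none of these 5 passed. The Srsf3, Srsf6 and Srsf10 signs turned with quantile normalization (−0.13, −0.07 and −0.05), and that of Srsf11 also with total read scaling (−0.14). Srsf12 was nearly absent, with 39, 14 and 0 reads in WT and 7, 0 and 0 in KO. Many SR genes make a second RNA with a premature stop, a so-called poison exon, and counts per gene add these forms together.

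**Figure D2:**
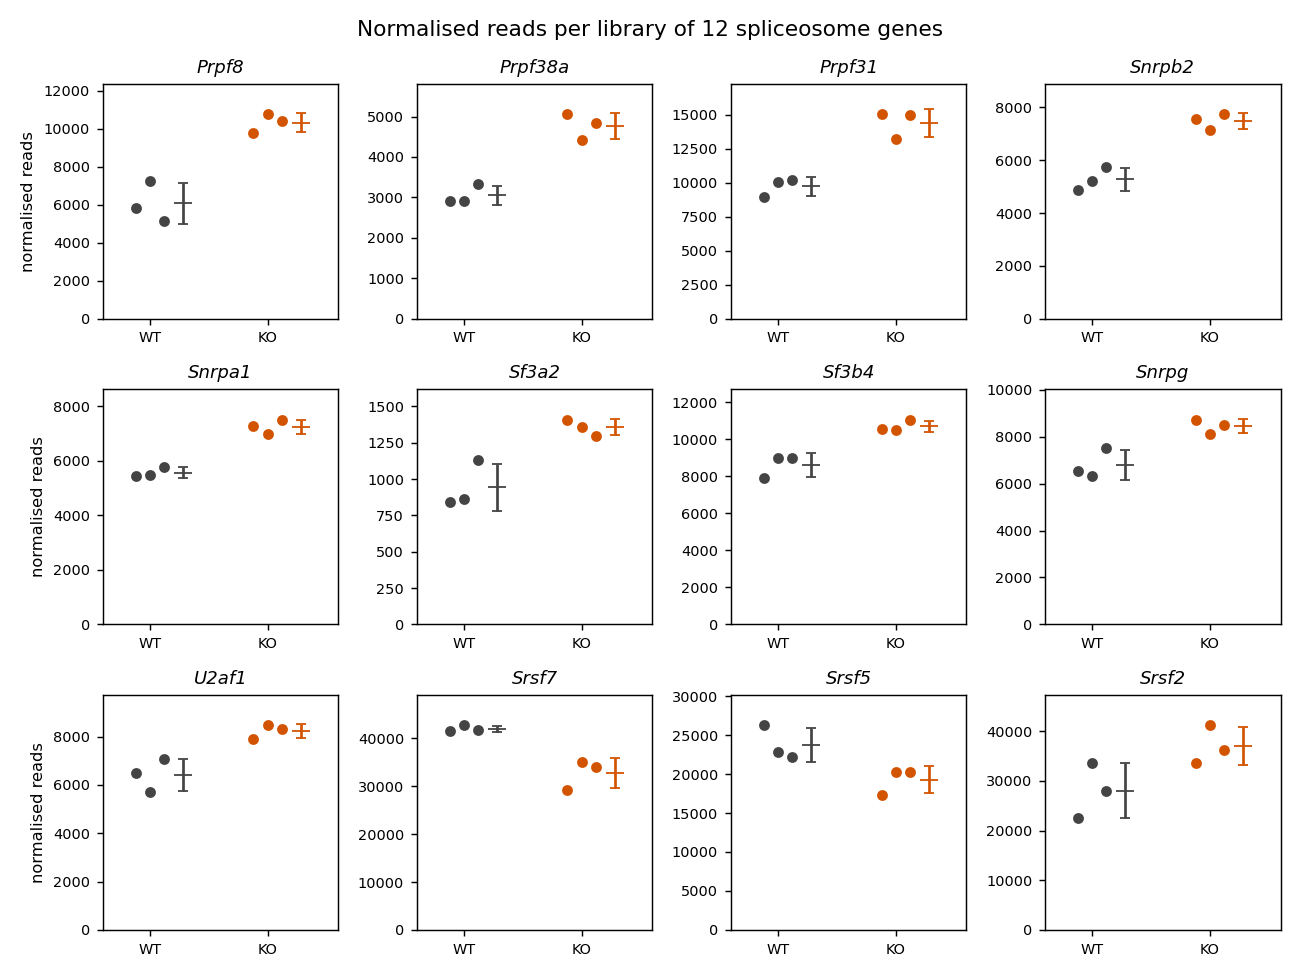
Normalised reads per library of 12 members, with a point for each of the 3 WT (dark grey) and 3 KO (orange) libraries and, beside them, the mean with its SD. The first 9 genes were called higher and Srsf7 lower, with no overlap between groups; Srsf5 (adjusted p = 0.0665) and Srsf2 (0.0855) did not pass.

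The largest rises were in the Prpf family, where Prpf8, Prpf38a and Prpf31 rose, 0 fell and 10 did not pass in limma. The share called higher was 23.1%, and also 23.1% in the Snrp family. Of all genes 10.3% were called higher, and of the abundant class 21.3%, so both shares were near that of the abundant class. Of the Prpf genes, 6 were higher and 1 lower at an unadjusted p below 0.05, and edgeR called 0 lower and DESeq2 1, Prpf40b. Prpf8 encodes the large U5 protein at the heart of the spliceosome, against which the catalytic RNA is folded (ENSMUSG00000020850.14, chromosome 11, 75486816 to 75509449). It had 5825, 7260 and 5153 normalised reads in WT and 9785, 10770 and 10425 in KO. All KO values lay well above the WT values, with means of 6079 ± 1076 and 10326 ± 500 (SD, n = 3 each). The log2 fold change was 0.78 ± 0.13 (SE), or 170% of the WT level, and the limma adjusted p was 0.00535.

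Prpf38a, a protein needed when the assembled spliceosome is activated (ENSMUSG00000063800.5, chromosome 4, 108563172 to 108579336), had 2922, 2919 and 3331 normalised reads in WT and 5054, 4424 and 4841 in KO. The groups were apart by a log2 fold change of 0.64 ± 0.10 (SE), with a limma adjusted p of 0.00412. Prpf31 binds U4 snRNA and is needed to join U4/U6 with U5 (ENSMUSG00000008373.16, chromosome 7, 3629985 to 3642486). Its values were 8959, 10050 and 10250 in WT and 15048, 13240 and 15005 in KO, again without overlap (0.57 ± 0.09 SE, limma adjusted p = 0.00491). Of the exon bases of Prpf31, 18.1% lie opposite Gm15927, a transcript with a mean of 192 normalised reads over the 6 libraries.

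The promoters of these 3 genes with the largest rises, and of Srsf7, which fell, are shown because the first 3 moved together and the last moved the other way. Each is 300 bases from RefSeq on GRCm38.p6, from 250 before to 50 after the annotated start, read along the gene. Capitals mark the letters CCAAT (the box bound by NF-Y) or GGGCGG (a GC box), or their reverse complements ATTGG and CCGCCC.
Prpf8 (chr11:75486527-75486826, plus strand): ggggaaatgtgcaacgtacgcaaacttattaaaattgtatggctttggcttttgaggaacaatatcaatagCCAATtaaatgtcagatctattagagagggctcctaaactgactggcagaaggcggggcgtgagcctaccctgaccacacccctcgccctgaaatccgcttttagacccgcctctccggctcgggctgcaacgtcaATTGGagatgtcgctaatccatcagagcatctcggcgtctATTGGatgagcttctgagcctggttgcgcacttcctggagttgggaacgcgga
Prpf38a (chr4:108579287-108579586, minus strand): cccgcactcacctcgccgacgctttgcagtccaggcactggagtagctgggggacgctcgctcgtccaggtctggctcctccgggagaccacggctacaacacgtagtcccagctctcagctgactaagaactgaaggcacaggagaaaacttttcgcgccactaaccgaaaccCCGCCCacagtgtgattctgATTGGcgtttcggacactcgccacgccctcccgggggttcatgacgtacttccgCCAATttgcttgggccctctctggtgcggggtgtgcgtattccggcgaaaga
Prpf31 (chr7:3629735-3630034, plus strand): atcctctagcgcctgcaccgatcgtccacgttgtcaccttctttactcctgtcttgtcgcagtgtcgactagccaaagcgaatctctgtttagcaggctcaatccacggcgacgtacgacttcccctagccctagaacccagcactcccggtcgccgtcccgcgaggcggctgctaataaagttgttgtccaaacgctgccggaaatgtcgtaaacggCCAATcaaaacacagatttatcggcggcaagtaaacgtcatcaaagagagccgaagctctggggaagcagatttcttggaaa
Srsf7 (chr17:80207256-80207555, minus strand): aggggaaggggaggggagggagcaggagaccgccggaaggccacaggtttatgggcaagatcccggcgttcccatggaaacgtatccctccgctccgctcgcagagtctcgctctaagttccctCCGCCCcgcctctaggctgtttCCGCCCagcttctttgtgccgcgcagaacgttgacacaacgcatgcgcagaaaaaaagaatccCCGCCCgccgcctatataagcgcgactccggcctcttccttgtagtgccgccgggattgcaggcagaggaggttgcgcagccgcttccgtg
The first 3 each held CCAAT on one strand or the other, at 3 places in Prpf8, 2 in Prpf38a and 1 in Prpf31, and Prpf38a also held 1 GC box, while Srsf7 held 3 GC boxes and no CCAAT. This contrast did not extend to all other members called higher, of which Sf3b4 had no window. The windows of Snrpb2, Snrpa1 and Sf3a2 each held 1 GC box and no CCAAT. That of Snrpg held 1 CCAAT and no GC box, and those of U2af1 held both. Of 53 windows of 41 members, 39.6% held CCAAT, against 37.4% of 32851 windows of all genes. For GGGCGG the shares were 56.6% and 35.7%, for the E-box CACGTG 11.3% and 7.15%, and for TATAAA 9.43% and 13.6%, each on both strands. The windows of all genes were not limited to genes expressed in these libraries, and the differences in share were not tested. Some members have several windows, some of which overlap, and these matches describe letters only.

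Among the other Prpf genes, Prpf19, the core of the complex that stabilises the catalytic form, had 564, 857 and 951 normalised reads in WT and 999.9, 1270 and 1092 in KO. All KO values were higher, but the WT spread was wide and the difference did not pass (log2 fold change 0.53, limma adjusted p = 0.114). Prpf6, a bridge within the tri-snRNP, had a log2 fold change of 0.24 and KO values above all WT values, and did not pass (limma adjusted p = 0.079). Prpf40b had 456, 420 and 333 in WT and 222, 301 and 251 in KO, all KO values being lower (−0.64, adjusted p = 0.065 in limma, and called in 3 of 18 alternatives). The U4/U6 proteins Prpf3 (−0.03) and Prpf4 (0.00), the kinase Prpf4b (−0.07), the second-step factor Prpf18 (0.17), and Prpf38b (0.12) and Prpf39 (0.00) overlapped between groups. Over the family the median was 0.17, beside 0.28 for Snrp, 0.25 for Sf3, 0.19 for U2af and 0.01 for Srsf, and differences between families were not tested.

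**Figure D3:**
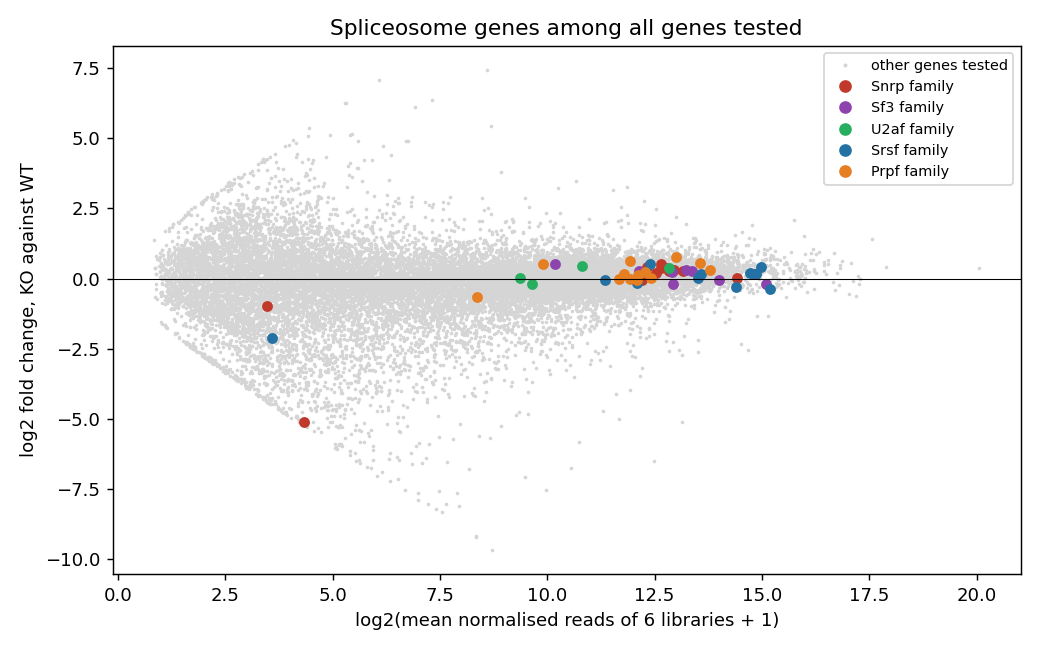
Log2 fold change of every tested gene against its mean normalised reads over the 6 libraries on a log2 axis, with other genes in grey and the 50 members coloured by family. Most members sit at the abundant end near 0, and the 3 members with a mean under 100 reads (Snrpert, Srsf12, Snrpn) lie at the left below 0.

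Divided by exon length (the union of GENCODE M21 exons, in kilobases), members spanned a wide range of levels. In WT the highest were Srsf7 with 11834 ± 186 normalised reads per kilobase and Snrpb with 11158 ± 1145 (SD, n = 3 each), which did not differ beyond their spread. Srsf2 (9478 ± 1874) and Snrpf (8264 ± 1015) followed, also within each other's spread, and then Srsf5 (5959 ± 548). In KO, Srsf2 (12511 ± 1312) and Snrpb (11197 ± 270) came first, then Snrpf (10227 ± 729) and Srsf7 (9235 ± 879). Prpf8 stood at 815 ± 144 in WT and 1384 ± 67.0 in KO. Sm and SR genes thus filled the top of the order, while Prpf19 (109 ± 27.8 in WT), Prpf40b (81.4 ± 12.8), Snrpn and Srsf12 were among the lowest. Exons of forms not made in these cells lower such values.

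The wider splicing machinery, in 6 further lists of 121 tested genes, had 34 genes that rose and 6 that fell, or 28.1% and 4.96%, beside 10.3% and 13% of all genes and 21.3% and 12.1% of the abundant class. Their median log2 fold change was 0.18. How the counts of calls in these lists move with total read scaling, quantile normalization or a library left out was not examined. Of 22 other snRNP protein genes 8 rose and 0 fell in limma (1 lower at an unadjusted p below 0.05, 0 by edgeR and 1 by DESeq2). Snrnp200, the helicase that unwinds U4 from U6, had 7494, 7668 and 6817 normalised reads in WT and 10546, 10282 and 9769 in KO (log2 fold change 0.48, limma adjusted p = 0.00616). Rbm17, a factor of branch point and 3' end recognition (0.58), and Phf5a, a small SF3B subunit (0.48), rose as well. Snrnp70, of the U1-70K protein, had a log2 fold change of 0.34 and did not pass (adjusted p = 0.0728 in limma). Zrsr1, a U2af1 relative that is imprinted like Snrpn and named after its values were seen, had 218, 128 and 110 in WT and 53.6, 40.3 and 91.5 in KO, all lower, and did not pass (−1.30, adjusted p = 0.0616 in limma).

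The kinases that phosphorylate SR proteins went in both directions. Clk1, a nuclear kinase whose own RNA keeps introns until it is needed, fell from 14504, 13540 and 13106 normalised reads in WT to 8155, 8320 and 8519 in KO, or 60.7% of the WT level (log2 fold change −0.72 ± 0.08 SE, limma adjusted p = 0.00128). Its relatives Clk3 and Clk4, named after their values were seen, fell by 0.31 on the log2 scale each, calls that held in 11 and 12 of 18 alternatives. Both calls were lost when replicate 1 or 2 of WT, or 1 or 3 of KO, was left out, and that of Clk3 also without WT replicate 3. The other CLK gene, Clk2, overlapped between groups and did not pass (0.11, adjusted p = 0.734 in limma). Srpk1, the mainly cytoplasmic kinase, rose from 5175, 5709 and 5348 to 6651, 8671 and 7980 (0.51, adjusted p = 0.0152 in limma), a call that held in 15 of 18 alternatives but not without WT replicate 1 or KO replicate 3. The other SRPK genes, Srpk2 (0.10, adjusted p = 0.559 in limma) and the scarce Srpk3 (0.56, adjusted p = 0.509), overlapped between groups and did not pass. Tnpo3, which imports phosphorylated SR proteins into the nucleus, rose (0.33), held in 14 of 18 and not without KO replicate 3. Son, a large SR-related protein of nuclear speckles, rose from 7651, 8287 and 7584 to 14792, 18346 and 15683 (1.05 ± 0.10 SE, adjusted p = 0.000854 in limma). Of this list of 25 genes, 4 rose, 4 fell and 17 did not pass. That was 16% each way, beside 10.3% of all genes called higher and 13% lower, or 21.3% and 12.1% of the abundant class. The exon splicing activator Tra2b did not pass (0.10, and −0.19 with quantile normalization and −0.04 with total read scaling).

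Of 22 hnRNP genes, whose products coat nuclear RNA and often oppose SR proteins, 11 rose and 0 fell in limma, with 0 lower also at an unadjusted p below 0.05, by edgeR and by DESeq2. Hnrnpa1 rose from 25540, 26552 and 28012 normalised reads to 38252, 41028 and 40483 (log2 fold change 0.58 ± 0.07 SE, limma adjusted p = 0.00215), and Hnrnpll (0.60) and Ptbp3 (0.70) rose as well. Of 15 genes that build the Sm ring, 4 rose and 0 fell in limma (1 lower at an unadjusted p below 0.05, 0 by edgeR or DESeq2). Smn1, which loads Sm proteins onto snRNA, rose from 2415, 2617 and 2616 to 5941, 3804 and 5483 (0.97, adjusted p = 0.00596 in limma). Strap (0.47) rose in all 18 alternatives as well. Gemin5, the snRNA reader, rose (0.49), but its call held in 12 of 18 alternatives and was lost when replicate 1 or 3 of WT, or 2 or 3 of KO, was left out. Of 27 genes of the Prpf19 complex and the catalytic steps (without Prpf19 itself), 6 rose and 2 fell. The helicase Dhx38 rose (0.73), while the cyclophilin Ppie (−0.50) and the second-step factor Slu7 (−0.37) fell, the last in 16 of 18 alternatives and not without KO replicate 3. Of 10 LSM genes, which ring U6 RNA or act in decay of messenger RNA, 1 rose, Lsm5 (0.39), and 0 fell in limma, at an unadjusted p below 0.05, by edgeR or by DESeq2, while Lsm2 (0.35) and Lsm7 (−0.51) did not pass. The Lsm5 call held in 12 of 18 alternatives and was lost when replicate 2 or 3 of WT, or 1 or 3 of KO, was left out. The shares called higher were 50% for hnRNP, 26.7% for Sm ring assembly, 22.2% for the catalytic steps and 10% for LSM genes. Beside these stood 10.3% of all genes and 21.3% of the abundant class. Differences from these shares were not tested.

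**Figure D4:**
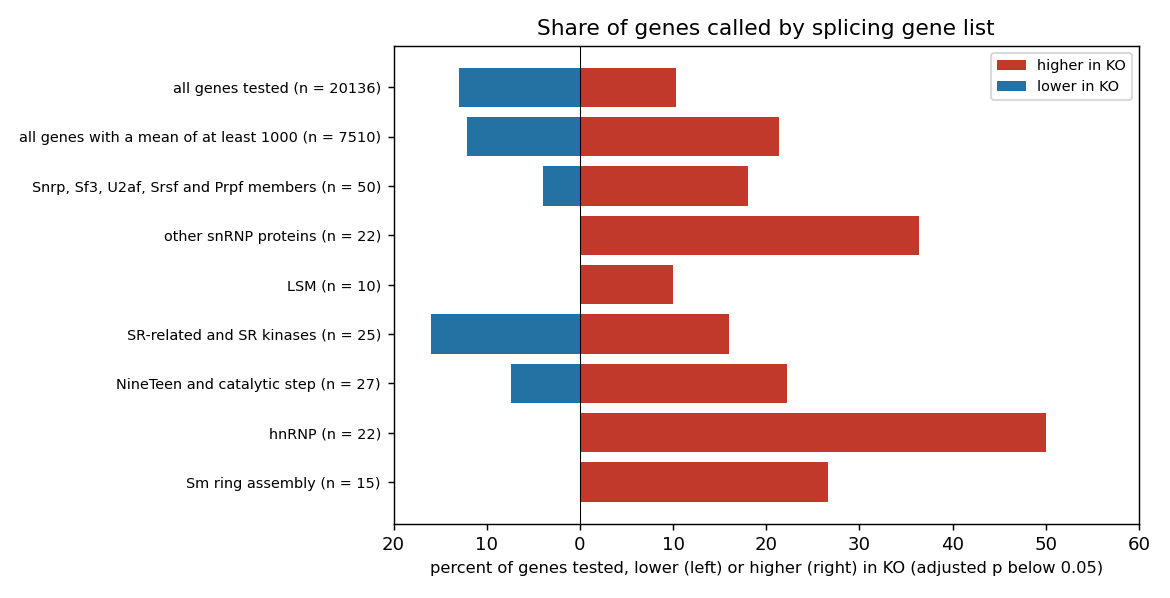
Percent of tested genes called lower (bars to the left) or higher (bars to the right) in KO at an adjusted p below 0.05, for all genes, for abundant genes, for the 50 members and for 6 further splicing lists, with the number tested beside each name. The hnRNP bar reaches 50% to the right and 0 to the left, and the members reach 18% to the right and 4% to the left, the latter including Snrpn.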

How the data were processed

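The authors deposited one column per library of gene-level values, called expression in the file headers. The deposited signal values are whole read counts that the authors divided by 1 size factor per library, as the values show: 1 read is worth 0.863 to 1.17, and 100% of values were whole multiples of it within 0.01 of a read. The submitters' processing notes list HISAT2, StringTie, mm8 and mm10 without saying what each was used for; the counting method was not given in the sources used. Of the identifiers, 49035 carry an unchanged version in GENCODE M21, all at identical coordinates, so positions are given as GRCm38.

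KO was compared with WT, 3 libraries each, by limma 3.58.1 in R 4.3.3 (intensity trend) on log2(value + 1), for the 20136 genes with at least 1 in at least 3 libraries, with two-sided Benjamini-Hochberg adjusted p-values and a threshold of 0.05. Fold changes of low genes are understated on this scale. Count tests on the recovered whole reads were alternatives: edgeR 4.0.16 called 2075 genes higher and 2496 lower, and DESeq2 1.42.0 called 2430 and 2964. Total read scaling was added after seeing the data; the other alternatives are named in the closing section. The procedure was also run on simulated data, where the set changes were larger than those of most called members. That run does not cover changes as small as theirs. No 2 libraries of a group agreed within sampling noise (chi-square per degree of freedom 38.0 to 80.5). Reads carry no molecular identifiers, so floors cover counting error only.

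The members, the further lists and the tests were chosen with earlier results of these data known. Named with full values were the 2 members of each family with the smallest p, the 6 largest rises and falls among called members, and Snrpb, Snrpn, Sf3b1, U2af1, Srsf1, Srsf2, Srsf3, Prpf8 and Prpf19. Of each further list the 3 with the smallest p were named, and Srpk1, Clk1, Snrnp70, Snrnp200 and Tra2b whatever their p. All listed splicing symbols were found; the marker Azu1 was not matched. RefSeq promoter windows were found for 41 of 49 member symbols. The values of 1 member, which stays in the counts, are not reported here.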

Additional observations from a re-analysis of the deposited data

How the results depend on the processing

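The alternatives were no intensity trend, library quality weights, upper quartile, quantile, TMM and total read scaling, a pseudocount of 0.1, no filter, a minimum of 5, edgeR, DESeq2, the replicate block and leaving out each library. Of all genes, 1071 were called higher without the trend, 3198 with quality weights and 1337 with total read scaling. Leaving out 1 library gave 978 to 1808 higher and 1617 to 2548 lower. Of members, 4 rose without the trend, 20 with quality weights and 4 with total read scaling, and 4 to 11 with 1 library left out. Members that fell numbered 1 without the trend, 5 with quantile normalization, 4 with DESeq2, 4 with total read scaling and 1 to 2 with 1 library left out. Snrpn was among them each time. In the Snrp family 1 rose without the trend, 9 with quality weights, 1 with total read scaling and 1 to 5 with 1 library left out. In the Sf3 family 0 rose without the trend, 4 with quality weights, 1 with quantile normalization, 0 with total read scaling and 0 to 2 with 1 library left out, while 2 fell with quantile normalization and 0 to 1 with 1 library left out. In the Srsf family 1 rose with quality weights, 1 with DESeq2 and 0 to 1 with 1 library left out. Its genes that fell numbered 0 without the trend, 2 each with quantile normalization, DESeq2 and total read scaling, and 0 to 1 with 1 library left out. In the Prpf family 5 rose with quality weights and 1 fell with quality weights, with DESeq2 and with total read scaling. The cause of these moves was not tested, except that a fit without a library has fewer samples.

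The replicate numbers did not pair the libraries: deviations from the group means of same-numbered libraries correlated at −0.02, −0.01 and −0.02, and no library correlated best with its own number. With the replicate block, 1705 genes were called higher and 2157 lower, 6 members rose and 2 fell, 0 of the Sf3 family rose and 1 of the Srsf family (Srsf2) rose.

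Quantile normalization moved the log2 fold change of all genes by a median of 0.22 and total read scaling by −0.14. The members' median less that of all genes was 0.21 as reported, 0.02 with quantile normalization and 0.20 with total read scaling. Over 78 named genes and 18 alternatives, 1211 values kept direction and side of the threshold, 95 lost the call, 44 gained it and 52 turned sign, in 18 genes of which none had passed the test. The turned log2 fold changes with quality weights were Snrpd2 0.0530, Srsf9 0.1093, Prpf4b 0.0042, Prpf3 0.0305, Prpf39 −0.2100, Prpf4 −0.0430 and Gm12992 −0.5310. With quantile normalization they were Snrpb −0.2264, Sf3b3 −0.1360, Srsf6 −0.0675, Srsf10 −0.0486, Srsf3 −0.1325, Srsf11 −0.1758, Prpf39 −0.1039, Prpf4 −0.0532 and Tra2b −0.1880. With total read scaling they were Snrpb −0.1329, U2af1l4 ENSMUSG00000078765 −0.1254, Srsf11 −0.1357, Prpf38b −0.0208, Prpf39 −0.1389, Prpf4 −0.1427 and Tra2b −0.0400. With upper quartile scaling they were Srsf11 −0.0007, Prpf39 −0.0039 and Prpf4 −0.0077. With edgeR they were Snrpb −0.0015, U2af1l4 ENSMUSG00000078765 −0.0589, Srsf11 −0.0064 and Prpf4 −0.0139. With DESeq2 they were U2af1l4 ENSMUSG00000078765 −0.0520 and Prpf4 −0.0076. With 1 library left out, the ranges of those that turned were −0.0788 to 0.0124 for Prpf3, −0.0515 to 0.3147 for Prpf38b, −0.1749 to 0.1906 for Prpf39, −0.0906 to 0.0932 for Prpf4, −0.1459 to 0.0275 for Prpf4b, −0.0847 to 0.0117 for Sf3b2, −0.0706 to 0.0780 for Snrpb, −0.1647 to 0.0521 for Snrpd2, −0.0578 to 0.0922 for Srsf11, −0.1727 to 0.1878 for Srsf9, −0.2622 to 0.2898 for U2af1l4 ENSMUSG00000078765 and −0.4624 to 0.0233 for U2af1l4 ENSMUSG00000109378.

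Snrpn, Snrpert and Srsf12 have at most 59 reads in a library, and differences in them are limited by depth.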

Other observations

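Gm12992, a processed transcript that covers 43.0% of the exon bases of Srsf4 on the opposite strand and was chosen after its values were seen, had 2474, 24.7 and 13.2 normalised reads in WT and 2045, 2943 and 18.1 in KO. It was high in WT replicate 1, KO replicate 1 and KO replicate 2 and near 0 in the other libraries, and did not pass (adjusted p = 0.543 in limma). Srsf4 itself had 4155, 4610 and 4893 in WT and 3465, 4768 and 4127 in KO.

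By share of all reads in a library, Srsf genes took 0.40%, 0.41% and 0.397% in WT and 0.345%, 0.399% and 0.377% in KO, and Prpf genes took 0.13%, 0.137% and 0.143% in WT and 0.161%, 0.149% and 0.154% in KO. The Srsf shares overlapped, since KO replicate 2 lay above WT replicate 3, and the Prpf shares did not overlap between the groups. The Sf3 genes took 0.268%, 0.266% and 0.262% in WT and 0.238%, 0.26% and 0.243% in KO, where every KO share lay below every WT share. In the deposited scaling 2 Sf3 genes were called higher and 0 lower, and with total read scaling 0 and 0. A share is relative to the library total, and the deposited values sum to more in KO than in WT. Sf3b1 and Sf3b3 had the most normalised reads of the Sf3 genes, and neither was called. Since the members were chosen with results known, these shares carry no test.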
